A study of Homo sapiens with 6 samples.

Results

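HCC-LM3 is an established human hepatocellular carcinoma line, used as a model of liver cancer that spreads readily. The series profiled it by RNA-seq in 6 libraries, 3 from cells that received DMSO, the solvent, and 3 from cells that received apigenin, a plant flavone. Only the 3 DMSO libraries are described here, DMSO 1, DMSO 2 and DMSO 3, chosen by their treatment label. The account is of the baseline under the solvent and holds no comparison of treatments. No label names cells without DMSO or apigenin, so any effect of the solvent is part of every level. The labels number the libraries as biological replicates of the line and give no passage, culture time or DMSO volume. Where nothing says that they came from separate cultures, the spread between them may be partly technical. A bulk library cannot tell fewer cells that make a transcript from less of it in each cell, and this holds for every level below.

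Hepatocytes make most plasma proteins, run the urea cycle, conjugate and export bile acids, and oxidise drugs, under a network of transcription factors that includes the HNF4, FOXA and C/EBP families. Cholangiocytes, which line the bile ducts, and the bipotent progenitors of the fetal liver carry KRT19, KRT7 and SOX9, and hepatocellular carcinomas often switch fetal genes such as AFP back on. Growth of such tumours can be driven through receptor tyrosine kinases, among them MET, the receptor of hepatocyte growth factor, and FGFR4, the receptor of the bile acid hormone FGF19.

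The libraries held 37173442, 37276429 and 34647650 counts, and 19059 to 19240 of the 23059 genes in the files had at least 1 count in a library. Levels between genes are given as FPKM, the deposited counts scaled to gene length and to the library total, with each library's value or as mean ± SD over the 3 libraries. A count of 0 in a library allows up to 0.0803 to 0.0867 CPM (counts scaled to library size; 3 counts, counting error only). A gene was taken as detected where it reached 1 FPKM in each of the 3 libraries. That held for 10975 genes, 47.6% of those in the files. It held for 10294 of the 15978 RefSeq protein-coding genes with a row in the files, 64.4%. Protein-coding genes without a row are left out of this share, here and wherever it is given below. Of 5755 lncRNA genes with a row, 473 were detected (8.22%). Mitochondrially encoded genes took 6.61 to 6.88% of counts and cytosolic ribosomal protein genes 3.55 to 3.62%.

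By counts, which are not scaled to gene length, the highest nuclear genes were those of a growth factor receptor, a matrix protein and the iron store. MET, which encodes the hepatocyte growth factor receptor (chromosome 7, 116672196 to 116798377 on GRCh38), had the most counts of any nuclear gene, with 353507, 349163 and 330868 in the 3 libraries. It took 0.948 ± 0.0096% of all counts. FN1, which encodes fibronectin (chromosome 2, 215360865 to 215436068), had 355204, 344689 and 329431 counts, 0.944 ± 0.0166% of the total. The pair was not ordered the same way in every library, since FN1 had more counts than MET in DMSO 1 and fewer in DMSO 2 and DMSO 3. FTL, the ferritin light chain (chromosome 19, 48965309 to 48966879), followed with 0.751 ± 0.0107%. Of the mitochondrially encoded genes, COX1 and ND4 exceeded all of these, at 19862 ± 413 and 12629.5 ± 231 CPM.

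Per length, the ferritin chains led the nuclear genes of 300 nucleotides or longer. FTL stood at 8613, 8743 and 8498 FPKM and FTH1, the heavy chain, at 4167, 4215 and 4167 FPKM. Members of the small S100 protein family followed, S100A4 at 2610.2 ± 28.6 and S100A6 at 2241 ± 72.1 FPKM, then GAPDH at 2122 ± 22.4 and S100A10 at 2070.3 ± 13.2 FPKM. Several other kinds of gene were among the 20 nuclear genes with most counts. AKR1B10, an aldo-keto reductase that reduces retinal and lipid aldehydes, stood at 1451 ± 38.8 FPKM, TXNRD1, the cytosolic thioredoxin reductase, at 788 ± 2.79, and SQSTM1, the autophagy receptor p62, at 1075 ± 25.1. Of the cytoskeletal genes in that list, ACTB stood at 1814 ± 33, ACTG1 at 1112 ± 25.5, KRT8 at 1283 ± 22.8, FLNA, a filamin, at 291 ± 2.35 and plectin (PLEC) at 118 ± 5 FPKM. Glycolysis gave GAPDH at 2122 ± 22.4 and PKM, the pyruvate kinase of proliferating cells, at 886 ± 4 FPKM. The list also held the translation factor EEF1A1 (1084 ± 19.5), the chaperone HSPA8 (1085 ± 11.6) and ASPH, an aspartyl hydroxylase of the endoplasmic reticulum (188 ± 2.38). By FPKM, TMSB10, which binds actin monomers (1693 ± 4.74), and the ribosomal protein genes RPS2 (1466 ± 56.6), RPL39 (1365 ± 24.1), RPL30 (1320.3 ± 45.9), RPL8 (1167 ± 11.7) and RPLP0 (1151 ± 25.1) were also among the 20 highest. FTL, FTH1, EEF1A1, GAPDH, KRT8, HSPA8, the actins and the ribosomal protein genes have near-identical processed copies elsewhere in the genome, and how reads that match several copies were counted is not stated, so their levels are uncertain to that extent.

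The output was spread over many genes. The 20 genes with most counts held 12.1 to 12.4% of all counts, and the 20 nuclear genes with most counts held 8.11 ± 0.0143%. In each library, 126 to 129 genes made up 25% of counts, 878 to 889 genes 50%, and 5714 to 5738 genes 90%. At the upper end 40 genes had a mean of 1000 FPKM or more, 506 had 100 or more and 5188 had 10 or more. LncRNA genes together gave 0.897 ± 0.00428% of counts. The highest of them were hosts of small nucleolar RNAs, SNHG6 at 159 ± 2.88, SNHG29 at 119 ± 1.09 and GAS5 at 91.8 ± 5.25 FPKM, with NORAD, a noncoding RNA that binds Pumilio proteins, at 101 ± 0.645. These 4 lncRNA genes were named after their levels were seen.

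MET did not stand alone on its chromosome arm. CAV1 (chromosome 7, 116525009 to 116561185), the main coat protein of caveolae, stood at 1232, 1216 and 1211 FPKM, and CAV2 (chromosome 7, 116499738 to 116508541), its partner in the coat, at 1071, 1041 and 1072 FPKM. Their starts lie 147.2 and 172.5 kilobases before that of MET, which stood at 1327, 1307 and 1333 FPKM. The 3 genes sat within a narrow band in every library, and the libraries differed by less than the genes did. TES, which encodes a focal adhesion protein, stood at 341 ± 3.38 FPKM, and MDFIC, an inhibitor of MyoD family factors, at 141 ± 2.06 FPKM, both on the centromeric side. On the other side, CAPZA2, a subunit of the actin capping protein that starts 190.4 kilobases beyond the start of MET, stood at 43.2, 43.2 and 42.1 FPKM, and the next gene, ST7, at 3.87, 3.55 and 4.47. The level in MET was 30.9 ± 0.68-fold that in CAPZA2. TFEC, which lies between MDFIC and TES, reached only 1.25 ± 0.0448 FPKM, so the high genes were not contiguous. TES, MDFIC, TFEC, CAPZA2 and ST7 were chosen after their values were seen. Together MET, CAV1, CAV2, TES and MDFIC gave 1.87 ± 0.0165% of all counts. MET overlaps the noncoding gene COMETT (6.11 ± 1.01 FPKM), and whether counting used strand is not stated, so reads of the overlap cannot be told apart.

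**Figure D1:**
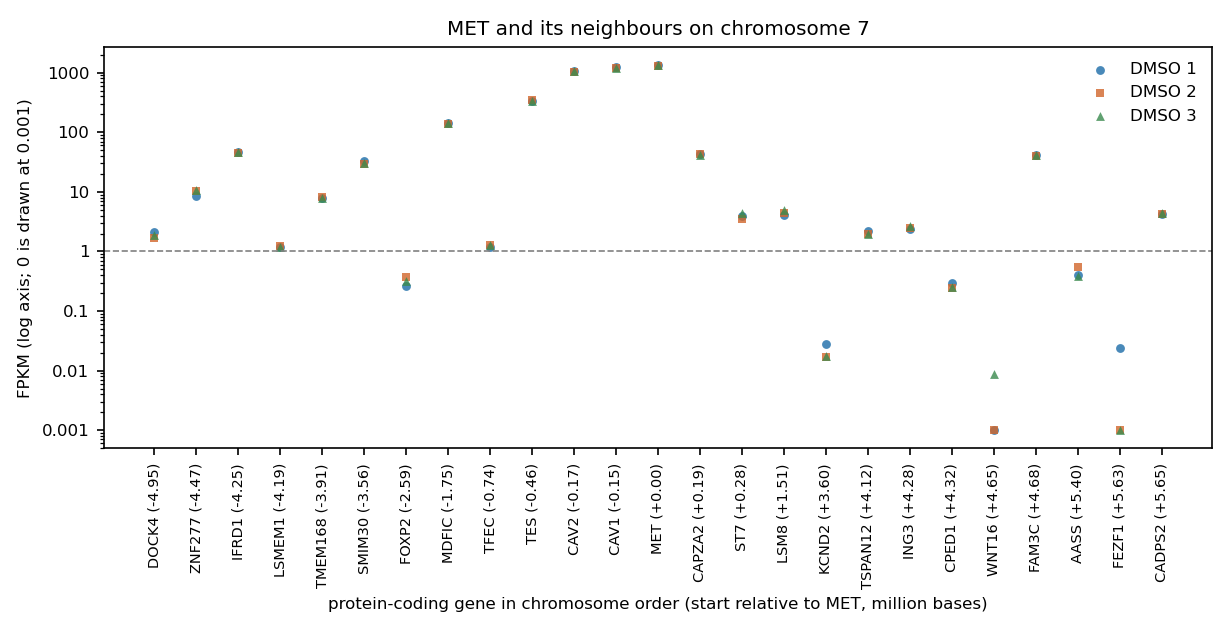
FPKM on a log axis for MET and the 12 protein-coding genes with a row on each side of it on chromosome 7, in chromosome order, with a marker for each of the 3 DMSO libraries. TES, CAV2, CAV1 and MET stand between 338 and 1333 FPKM in every library, while CAPZA2 stands at 42.1 to 43.2 and ST7 at 3.55 to 4.47.

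To place that stretch, windows of 10 neighbouring protein-coding genes with a mean of 0.1 FPKM or more were slid along each chromosome. The 12336 overlapping windows had a median of medians of 7.31 FPKM and a 99th percentile of 35.8. The window from TMEM168 to CAPZA2 had a median of 92.0 FPKM, the second highest. The highest, at 118 FPKM, was on chromosome 19 from PSMD8 to HNRNPL, and it holds LGALS4, a galectin of the gut epithelium (344 ± 1.44 FPKM), and ACTN4, an actinin (158 ± 2.73 FPKM). The window boundaries follow from the genes themselves, so these places are a description of this genome and have no test. DNA copy number was not measured here.

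Promoter sequences of the albumin gene family, the classical liver family, are set beside that of MET because the 2 kinds of promoter differ in make-up and the 4 genes differ widely in level, from AFM at 0.629 ± 0.202 to MET at 1322 ± 13.4 FPKM. The 250 bases before the RefSeq start of each gene are shown on the plus strand of GRCh38.p14, from chr4:73404037-73404286 for ALB, chr4:73435971-73436220 for AFP, chr4:73481495-73481744 for AFM and chr7:116671946-116672195 for MET. Capitals mark GTTAAT, a core motif of homeodomain factors, and TATAAA, the TATA box, in the first 3, and CG pairs in MET.
ALB: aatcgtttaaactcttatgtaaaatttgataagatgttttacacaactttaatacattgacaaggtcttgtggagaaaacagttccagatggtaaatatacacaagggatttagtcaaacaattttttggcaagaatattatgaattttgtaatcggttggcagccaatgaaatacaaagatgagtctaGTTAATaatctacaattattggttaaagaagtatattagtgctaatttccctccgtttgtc
AFP: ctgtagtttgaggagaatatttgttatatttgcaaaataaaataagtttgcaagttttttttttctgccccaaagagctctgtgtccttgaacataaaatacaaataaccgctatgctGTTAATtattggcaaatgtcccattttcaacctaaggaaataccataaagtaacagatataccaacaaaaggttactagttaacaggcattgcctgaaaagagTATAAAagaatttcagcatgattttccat
AFM: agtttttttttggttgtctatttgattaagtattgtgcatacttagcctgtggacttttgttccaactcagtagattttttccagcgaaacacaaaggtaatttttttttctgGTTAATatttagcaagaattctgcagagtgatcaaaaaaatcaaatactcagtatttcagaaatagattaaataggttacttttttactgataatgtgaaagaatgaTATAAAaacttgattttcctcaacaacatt
MET: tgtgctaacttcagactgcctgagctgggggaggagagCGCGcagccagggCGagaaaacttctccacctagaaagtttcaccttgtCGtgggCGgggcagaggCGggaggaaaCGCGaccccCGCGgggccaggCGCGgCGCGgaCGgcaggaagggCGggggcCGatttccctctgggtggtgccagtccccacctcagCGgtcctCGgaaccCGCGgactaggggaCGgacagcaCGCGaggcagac
GTTAAT begins 61 bases before the start of ALB, 132 before AFP and 137 before AFM, and TATAAA begins 29 bases before AFP and 30 before AFM. The MET stretch holds 24 CG pairs, a ratio of 0.850 to the number its C and G content would give, against 3 CG pairs and a ratio of 0.481 for ALB and 1 pair each for AFP and AFM.

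Across 16670 genes matched by symbol to a RefSeq promoter window of 300 bases, which adds 50 bases after the start, GTTAAT on either strand was found in 5.24% and TATAAA in 8.43%. The 2 motifs share no overlap in letters that would let a single site count as both. Plasma protein genes here are the 65 with a matched window from the albumin, apolipoprotein, coagulation, complement, protease inhibitor and carrier lists. Other members of these lists had no matched window and were left out. Of the 65, 16 held GTTAAT (24.6%). It was in 8 of the 24 that were detected (33.3%) and in 8 of the 41 that were not (19.5%). The plasma protein windows were poor in CG pairs, with a median ratio of 0.236. Among all windows with a ratio under 0.4, 11% held GTTAAT, against 3.31% of the others. The CG ratio rose with the level of the gene, from a median of 0.312 for genes at 0 counts through 0.417 below 0.1 FPKM, 0.659 up to 1 and 0.831 up to 10 to 0.868 at 10 to 100 FPKM and 0.868 at 100 or more. These are counts of letters across genes, which are not independent replicates, and a match says nothing of binding.

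Liver identity was partial in these libraries. Of 200 genes of 13 liver lists with a row in the files, 97 were detected (48.5%), beside 64.4% of all protein-coding genes, and 27 had fewer than 3 counts in each library. The transcription factors of the hepatocyte network were largely on, the plasma proteins were divided, and several enzymes of the hepatocyte's own metabolism were at or near 0.

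ALB, which encodes serum albumin (chromosome 4, 73404287 to 73421482), stood at 54.8, 54.7 and 52.1 FPKM (4657, 4660 and 4121 counts), place 1046 among all genes. AFP, the fetal counterpart of albumin (chromosome 4, 73436221 to 73456174), stood at 3.02, 3.11 and 3.35 FPKM. The ranges of the pair did not overlap, and ALB exceeded AFP 17.1 ± 1.4-fold. AFM, a vitamin E carrier and the next gene of the cluster, fell short of detection at 0.418, 0.819 and 0.65 FPKM. GC, the vitamin D binding protein of the same family, had 0, 1 and 0 counts. The family was therefore ordered ALB, AFP, AFM, GC in every library, and FTL, the leading nuclear gene, exceeded ALB 160.1 ± 3.09-fold.

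Of 13 apolipoproteins, 5 were detected. APOL1, the trypanosome-killing component of HDL, was highest at 67.1, 66.1 and 66.3 FPKM, followed by APOH, a phospholipid-binding plasma protein, at 26.4, 28.2 and 27.8 and APOC1 at 24.9, 27 and 24.7. APOB, the backbone of VLDL and LDL, stood at 5.95 ± 0.532 FPKM and APOE at 3.75 ± 0.78. APOA4 had a mean of 1.29 ± 0.276 FPKM without reaching 1 in every library. APOA2, a structural protein of HDL, had 0, 0 and 1 counts and APOA5 1, 0 and 0. Among 18 coagulation factors 6 were detected: TFPI, the inhibitor of the tissue factor pathway, at 47.5 ± 0.376 FPKM, F5 at 15.4 ± 0.477, prothrombin (F2) at 6.82 ± 0.3, the fibrinogen chains FGB and FGA at 4.81 ± 0.608 and 4.74 ± 0.786, and protein S (PROS1) at 1.35 ± 0.109. F11 had 0, 0 and 1 counts and PROZ 0 in each library.

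Of 20 complement genes 8 were detected. The C1 proteases C1S and C1R stood at 25.2 ± 0.862 and 13 ± 0.392 FPKM, C4BPA at 5.75 ± 0.32, C5 at 2.86 ± 0.173 and C8G at 2.45 ± 0.15. C4B, which has a near-identical copy in C4A, had 2, 0 and 2 counts. Among 18 plasma protease inhibitors 6 were detected and ITIH2, a heavy chain that links to hyaluronan, stood far above the rest at 156, 153 and 156 FPKM. SERPINA1, alpha-1 antitrypsin, followed at 11.6, 10.4 and 11.4, with AMBP at 9.91 ± 1.32, SERPINF1 at 7.76 ± 0.317, SERPINA6, the cortisol carrier, at 5.35 ± 1.1 and AHSG, fetuin A, at 1.51 ± 0.113. Antithrombin (SERPINC1) had 0, 2 and 1 counts, the C1 inhibitor (SERPING1) 0 in each library and A2M 1, 2 and 0.

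Carriers and acute phase proteins gave 8 of 19 detected. Ceruloplasmin (CP), the copper ferroxidase of plasma, stood at 129.7, 121 and 131 FPKM, SELENOP, the selenium carrier, at 35.2 ± 1.6, RBP4, which carries retinol, at 19.7 ± 1.9, transferrin (TF) at 16.1 ± 0.458, FGL1 at 7.96 ± 0.294 and angiotensinogen (AGT) at 6.42 ± 0.605. SAA1, an acute phase protein, had 0, 0 and 1 counts. CP was thus higher than ALB in each of the 3 libraries.

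Among its genes with a row, the urea cycle was split by position. OTC, another listed enzyme of the cycle, had no row, so its place in this split is not known. Carbamoyl-phosphate synthetase (CPS1), the first and rate-limiting enzyme, had 0 counts in each library, its activator enzyme NAGS 0, 2 and 0 and arginase (ARG1), the last enzyme, 1, 1 and 0. Of the middle enzymes, which also serve arginine recycling outside the liver, ASS1 stood at 7.09, 6.52 and 6.53 FPKM and ASL at 28.7, 27.5 and 27.1. The transporters SLC25A13, which brings aspartate from mitochondria, and SLC25A15, which carries ornithine, stood at 29.8 ± 1.11 and 2.57 ± 0.352 FPKM. Of the 7 genes with a row 4 were detected, and the other 3 had fewer than 3 counts in each library.

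Gluconeogenesis had the same mixed form. Of 13 genes for glucose and fructose handling, 7 were detected, led by pyruvate carboxylase (PC, 20.8 ± 0.904 FPKM), liver glycogen phosphorylase (PYGL, 11.9 ± 0.717), the mitochondrial PCK2 (10.7 ± 1.34), the glucose-6-phosphate transporter SLC37A4 (10.1 ± 0.908), FBP1 (3.18 ± 0.113) and GCKR (2.7 ± 0.253). The enzyme that releases free glucose, G6PC1, had 1, 0 and 0 counts and the hepatocyte glucose transporter SLC2A2 1, 0 and 0. For amino acid breakdown, 8 of 16 genes were detected, among them HGD (38.6 ± 0.402 FPKM) and FAH (18.4 ± 0.545) of tyrosine breakdown, glutamine synthetase (GLUL, 33.7 ± 0.608), TDO2 (4.26 ± 0.395), CBS (3.48 ± 0.852) and HPD (3.23 ± 0.26). GLS2 had 2, 0 and 0 counts and GNMT 0 in each library.

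Bile acid genes ranged from abundant exporters to uptake carriers near 0. The canalicular exporter ABCC2 stood at 106, 102 and 106 FPKM, the conjugating enzyme BAAT at 55.9, 57.2 and 59.1 and the basolateral exporter ABCC3 at 55.5, 58.7 and 56.4. CYP27A1, which begins the acidic synthesis pathway, stood at 20 ± 0.738 FPKM, the organic anion carrier SLCO2B1 at 5.13 ± 0.144 and SLC27A5 at 4.02 ± 0.0907. The uptake transporter SLC10A1 (NTCP) had 1, 0 and 0 counts, SLCO1B3 1, 0 and 0 and CYP7B1 0 in each library. In all, 6 of 13 were detected.

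Drug and alcohol metabolism was dominated by a single enzyme. ALDH1A1, a retinal and aldehyde dehydrogenase (chromosome 9, 72900671 to 72953053), stood at 829, 814 and 831 FPKM and gave 81.5 ± 0.16% of the summed FPKM of the 20 genes. It exceeded the next, ADH1C (54.4 ± 1.22 FPKM), 15.2 ± 0.446-fold. ADH5 (40.8 ± 0.807), ALDH2 (34.9 ± 0.271), CYP2B6 (34.6 ± 2.82) and CYP3A5 (14.7 ± 0.0846) followed. CYP3A4, the main drug-oxidising P450 of adult liver and named after its value was seen, had 44, 8 and 35 counts, lowest in DMSO 2. ADH1A had 1, 0 and 0 counts; it shares long stretches with ADH1C, and reads could be split between them.

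Of 25 liver-enriched transcription factors, 20 were detected, 11 of them with a mean of 10 FPKM or more. CEBPA, a driver of hepatocyte differentiation, stood at 41, 43.8 and 38 FPKM, CREB3L3, a fasting factor of the endoplasmic reticulum, at 40 ± 0.0486, ATF5 at 39.1 ± 1.31, HHEX, needed for the liver bud, at 38.6 ± 2.25, CEBPB at 32.7 ± 0.523 and CEBPG at 26.5 ± 0.181. HNF4A (chromosome 20, 44355699 to 44434596) stood at 10.7, 10.4 and 9.77 FPKM and FOXA2 at 15.6, 15.3 and 14.2. None of these varied by more than 1.2-fold in FPKM between libraries. NR1I3, the drug receptor CAR, had 0 counts in each library. The receptors by which hepatocytes take up cargo were detected in 9 of 14 cases, led by the transferrin receptor TFRC (139 ± 2.27 FPKM), the HDL receptor SCARB1 (89.1 ± 0.426), LRP1 (27.2 ± 0.738) and the hepatitis C entry factors CD81 (17.2 ± 0.998) and CLDN1 (15.9 ± 0.193). TFR2, the iron sensor of hepatocytes, had 0 counts in each library, and STAB1, a scavenger receptor of sinusoid lining cells, 0, 0 and 0.

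**Figure D2:**
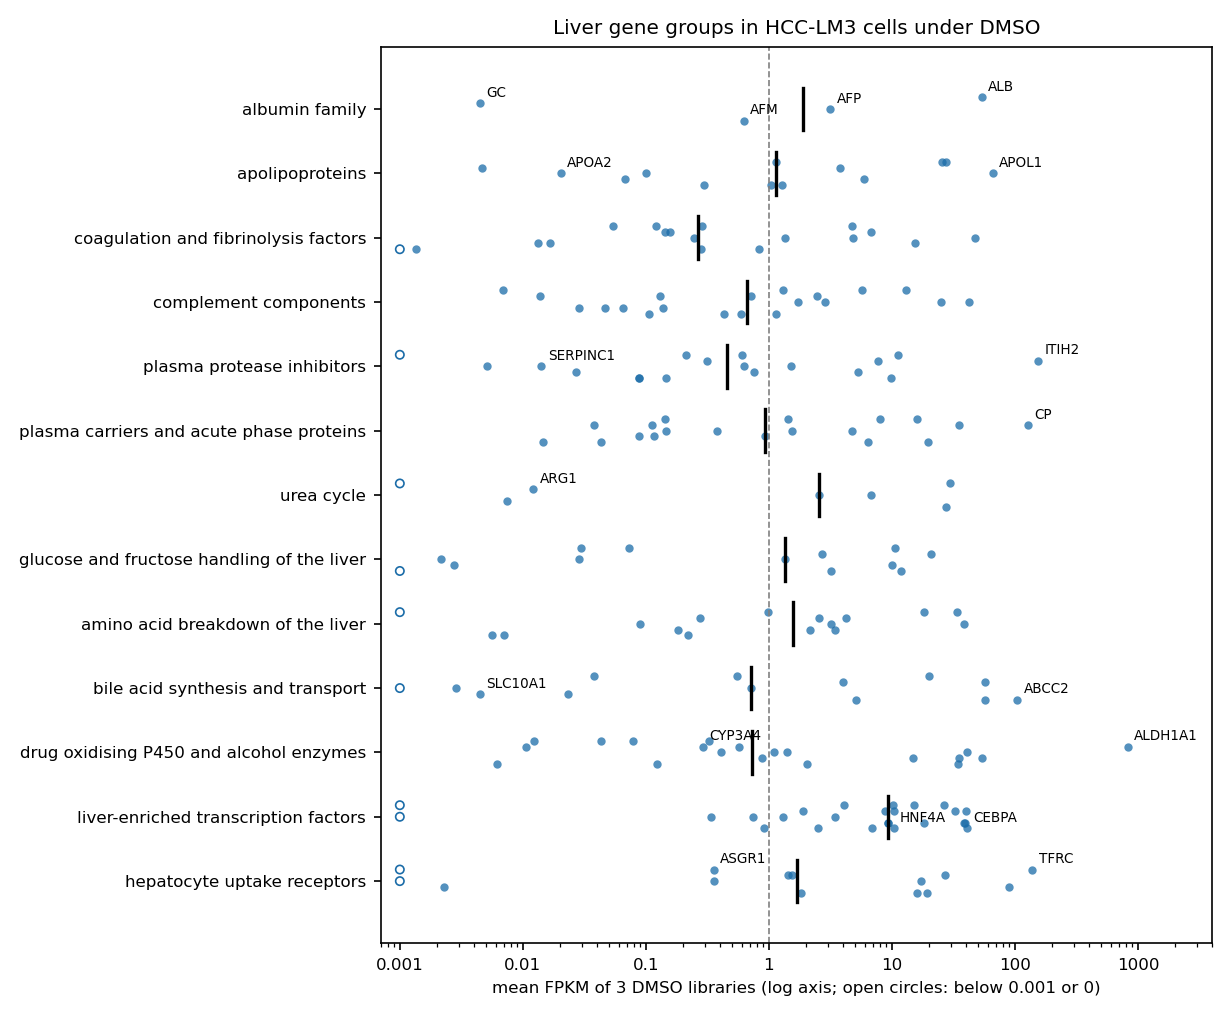
Mean FPKM over the 3 DMSO libraries on a log axis for each member of 13 liver gene groups, with a point per gene, a black bar at the group's median and a dashed line at 1 FPKM. The median of the transcription factors is 9.38 FPKM, while those of the coagulation factors and protease inhibitors are 0.264 and 0.461, and open circles mark members below 0.001 FPKM.

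Biliary and progenitor markers gave a mixed set of their own. Of 28 with a row 17 were detected (60.7%), near the 64.4% of all protein-coding genes. SPP1, osteopontin, a secreted glycoprotein of ducts and tumours (chromosome 4, 87975714 to 87983411), led at 407, 379.8 and 399 FPKM. KRT19, the duct keratin (chromosome 17, 41523617 to 41528308), stood at 141, 145 and 135 FPKM, its companion KRT7 at 4.57, 4.94 and 4.89, and KRT19 exceeded KRT7 29.3 ± 1.65-fold. SOX9, the ductal transcription factor, stood at 18.3, 18.8 and 19.3 FPKM. CD24 (107 ± 0.659), ANXA4 (49 ± 0.211), the hyaluronan receptor CD44 (43.7 ± 0.656) and the Notch ligand JAG1 (42.4 ± 0.246) were also high. The surface markers most used to sort liver progenitors were not: EPCAM had 10, 7 and 2 counts and PROM1 (CD133) 0 in each library. NCAM1 had 0, 1 and 0 counts, LGR5 1, 0 and 0, THY1 0 in each library, KRT23 1, 1 and 1 and SCTR 2, 0 and 1.

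Oncofetal genes are on in the fetus or in tumours and low in adult liver. Of the 16 with a row 13 were detected (81.25%), beside 64.4% of all protein-coding genes. Another 3 of the 19 listed were not analysed here. CEACAM6, a GPI-anchored adhesion molecule of gut and lung epithelium (chromosome 19, 41755530 to 41772211), stood at 832, 812 and 851 FPKM, 264 ± 11.2 times AFP. Midkine (MDK) stood at 245, 252 and 239 FPKM, the chromatin protein HMGA1 at 204, 199.7 and 201, the imprinted RNA H19 at 78, 86 and 82.1, the tetraspanin TSPAN8 at 73.1, 75.1 and 76.6 and PEG10 at 15.7 ± 0.443. IGF2, the fetal growth factor beside H19, had 14, 11 and 20 counts, or 0.063 ± 0.022 FPKM. H19 and IGF2 are imprinted neighbours on chromosome 11, and only H19 was detected.

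Cancer-testis antigens, germline genes on the X chromosome that tumours reactivate, were detected in 6 of 16 cases (37.5%). This stands beside 64.4% of protein-coding genes, and another 12 of the 28 listed had no row. MAGEA3 stood at 21.4, 23.7 and 21.5 FPKM, MAGEC2 at 14.4, 15.4 and 14.6, MAGEA6 at 3.39 ± 0.337, MAGEC1 at 1.76 ± 0.143 and MAGEA12 at 1.47 ± 0.409. GAGE2A stood at 8.68, 8.85 and 16.2 FPKM, highest in DMSO 3. MAGEA3 and MAGEA6 are nearly identical and the GAGE genes form an array of near-copies, so the split between members is uncertain. PAGE2 had 1, 0 and 0 counts. Of 9 pluripotency genes 3 were detected (33.3%), the reprogramming factor KLF4 at 29.5 ± 0.356 FPKM, SOX2 at 9.51, 10.3 and 11.4 and the methyltransferase DNMT3B at 2.55 ± 0.297. POU5F1, which has processed copies, reached 0.485 ± 0.112 FPKM, NANOG had 0 counts in each library and PRDM14 0 in each library.

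Among receptors, 117 of 234 were detected (50%), beside 64.4% of protein-coding genes. The receptor tyrosine kinases showed a single outlying member. Of 50 with a row 20 were detected, and MET gave 85.8, 85.2 and 85.7% of their summed FPKM in the 3 libraries. EPHB4, an ephrin receptor of vessel and gut boundaries, came next at 33.6, 35.7 and 35.7 FPKM, so MET was 37.8 ± 1.53-fold higher. LMTK2 stood at 23.2 ± 0.761 FPKM, EPHA2 at 20.6 ± 0.308, EGFR (chromosome 7, 55019017 to 55211628) at 20.8, 19.9 and 20.3 and FGFR4 (chromosome 5, 177086915 to 177098144) at 17.7, 20.2 and 17.7. In this order EPHA2 overlapped EGFR and EGFR overlapped FGFR4 between libraries, while LMTK2 lay above all 3 in each library. ERBB3 (18.5 ± 0.659 FPKM) and ERBB2 (2.64 ± 0.203) were named after their values were seen, and EGFR exceeded ERBB2 7.73 ± 0.717-fold. KDR, the VEGF receptor of endothelium, stood at 9.74, 9.12 and 9.81 FPKM. PDGFRB had 1, 0 and 0 counts, FLT4 0, 0 and 1, RET 0, 1 and 0, NTRK3 0, 1 and 0, ROR2 1, 0 and 0, EPHA6 1, 0 and 0, EPHA7 1, 0 and 0 and INSRR 0 in each library.

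**Figure D3:**
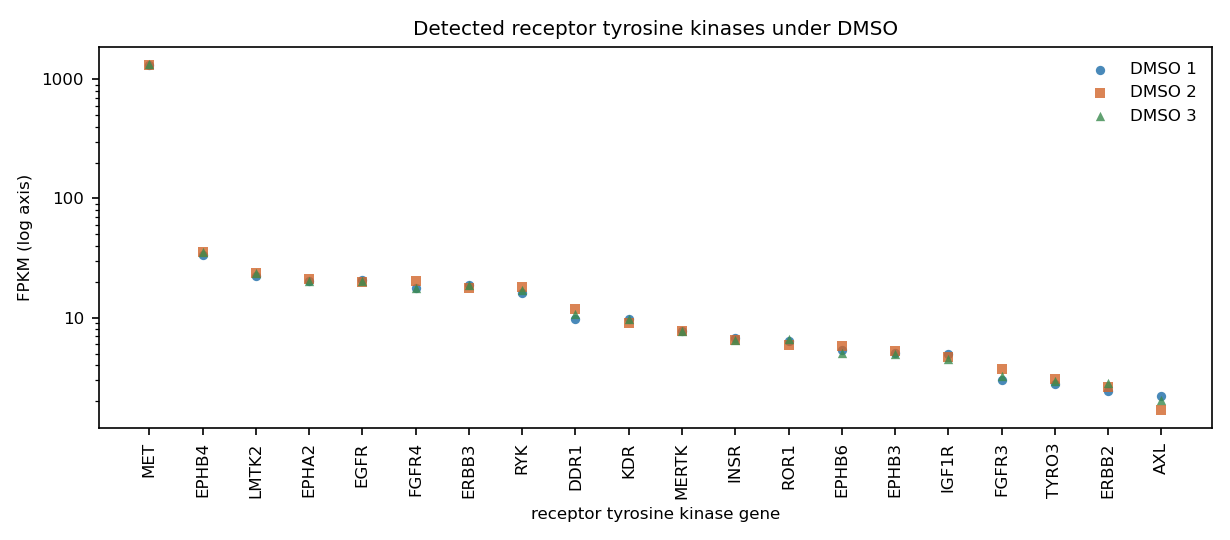
FPKM on a log axis of the 20 detected receptor tyrosine kinase genes, in falling order of the mean, with a marker for each DMSO library. MET lies at 1307 to 1333 FPKM and every other kinase lies below 36.

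Receptors of the TGF-beta family were detected in 9 of 14 cases, with TGFBR2, the ligand-binding receptor of TGF-beta, at 27.3, 26 and 26.5 FPKM, ACVR1 at 13.7 ± 0.412, ACVR1B at 5.28 ± 0.325, BMPR1A at 4.27 ± 0.345, TGFBR1 at 3.88 ± 0.166 and BMPR2 at 3.36 ± 0.0811. ACVRL1, the endothelial member, had 2, 0 and 1 counts. Of 23 Wnt, Notch and hedgehog receptors 14 were detected. The Wnt coreceptors LRP5 and LRP6 stood at 49.2 ± 2.03 and 19.2 ± 0.209 FPKM, the R-spondin receptor LGR4 at 33.7 ± 1.43, the frizzled receptors FZD7 and FZD6 at 11.1 ± 0.293 and 9.2 ± 0.239, and NOTCH2, the Notch receptor of bile duct formation, at 8.64 ± 0.292. LGR5 had 1, 0 and 0 counts, LGR6 1, 1 and 0 and NOTCH4 2, 1 and 1.

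Of 50 cytokine and death receptors 31 were detected. The TWEAK receptor TNFRSF12A stood at 118, 122 and 118 FPKM, the main TNF receptor TNFRSF1A at 106, 111 and 105, the lymphotoxin receptor LTBR at 88 ± 1.15, and TNFRSF21 at 40 ± 2.24. IL13RA2, a decoy receptor of IL-13 and a tumour antigen, stood at 82.3, 83.1 and 78.5 FPKM, above the signalling chain IL13RA1 at 57.9, 55.9 and 55.5, with no overlap between the libraries of the pair. CD40 had 0, 0 and 1 counts and CSF2RB 0 in each library.

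Of 45 nuclear receptors 28 were detected. The oxysterol receptor NR1H2 stood at 40.8 ± 1.05 FPKM, NR2F6 at 36.9 ± 2.62, ESRRA, a regulator of mitochondrial genes, at 26.5 ± 2.24, NR0B1, an adrenal and gonadal corepressor, at 24.2, 25.2 and 24.5, the retinoid partner RXRA at 21.7 ± 0.485 and PPARG, the fat cell regulator, at 18.3 ± 0.288. RORB, NR1I3, RXRG and ESRRB had fewer than 3 counts in each library. Chemokine receptors were detected in 2 of 13 cases, both atypical scavengers, ACKR3 at 4.62, 5.37 and 5.79 FPKM and ACKR4 at 1.12, 1.76 and 1.7. ACKR2 (0.0764 ± 0.0632), CCR6 (0.0479 ± 0.0127), CXCR5 (0.0359 ± 0.0333) and CCR10 (0.0353 ± 0.0611) were the next in order. CCR1, CCR3, CXCR3 and XCR1 had fewer than 3 counts in each library. Of 39 receptors for hormones, lipids and nucleotides 13 were detected. The protease-activated receptors F2RL1, F2R and F2RL2 stood at 36.1 ± 0.351, 11.2 ± 0.173 and 9.18 ± 0.653 FPKM, GPRC5A, an orphan receptor of epithelia, at 30.5 ± 0.298, the angiotensin receptor AGTR1 at 19.7, 20.6 and 19.4 and LPAR1 at 4.45 ± 0.192. GLP1R, ADRA1A, S1PR3, S1PR4, LPAR4 and SSTR2 had fewer than 3 counts in each library.

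Secreted factors were detected in 90 of 199 cases (45.2%), beside 64.4% of protein-coding genes. Angiogenic factors gave 7 of 12. Adrenomedullin (ADM), a vasodilator induced in low oxygen, stood at 53.9, 54.2 and 56.6 FPKM, VEGFB at 25.2 ± 1.46 and VEGFA (chromosome 6, 43770211 to 43786487), the main growth factor of vessels, at 18.7, 18.6 and 19.1. ANGPTL4 stood at 9.34 ± 0.518 FPKM, ANG at 4.58 ± 0.867 and PDGFA at 3.67 ± 0.467. ANGPT2 had 1, 0 and 0 counts. ADM was about as high as ALB, at 54.8, 54.7 and 52.1 FPKM, and its libraries overlapped those of ALB.

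Fibroblast growth factors were almost silent. FGF2 alone of 13 was detected, at 1.92, 2.08 and 1.96 FPKM, and FGF11 (0.208 ± 0.105), FGF13 (0.108 ± 0.00301), FGF9 (0.0979 ± 0.0151), FGF1 (0.0655 ± 0.012) and FGF17 (0.0287 ± 0.0249) were the next. FGF19, the ligand of FGFR4, had 0 counts in each library while its receptor stood at 18.5 ± 1.47 FPKM. FGF5 had 0, 0 and 2 counts, FGF7 1, 0 and 0 and FGF8 0 in each library. FGF2 overlaps NUDT6, and part of its counts may be from that gene.

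Among the EGF family, HGF and insulin-like ligands 7 of 18 were detected. Midkine and progranulin (GRN, 90.6 ± 5.71 FPKM) were the highest, followed by the EGFR ligands epiregulin (EREG, 11.6, 12.2 and 12.3), amphiregulin (AREG, 7.96, 8.24 and 7.32), TGFA (3.84 ± 0.391) and BTC (2.15 ± 0.307). EPGN, NRG2 and IGF1 had fewer than 3 counts in each library. HGF, the ligand of MET and named after its value was seen, had 17, 16 and 28 counts (0.0757 ± 0.0283 FPKM).

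TGF-beta superfamily ligands were detected in 8 of 21 cases. GDF15, a stress hormone that acts on appetite, stood at 33.1, 36.2 and 33.3 FPKM, TGFB1 at 31.2, 35.5 and 34.2, BMP2 at 20.2, 20.3 and 19, TGFB2 at 8.29 ± 0.597, the inhibin chain INHBB at 7.12 ± 0.47 and BMP6, the iron signal of the liver, at 5.46 ± 0.483. BMP7 had 0, 1 and 2 counts and MSTN 0 in each library. Of 18 Wnt ligands and secreted inhibitors 5 were detected, led by the inhibitor DKK1 at 55.8, 57.4 and 56.3 FPKM, with WNT5A at 5.76 ± 0.191, WNT3 at 2.73 ± 0.243, DKK3 at 2.72 ± 0.257 and WNT7B at 1.52 ± 0.098. SFRP1, DKK2, WNT10A, WNT11 and WNT16 had fewer than 3 counts in each library.

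Of 17 chemokines with a row 6 were detected, and 11 reached a lower cut of 0.5 FPKM in each library. The count thus depends on the cut, and another 17 of the 34 listed had no row. The membrane-tethered CXCL16 stood at 16.3, 16.7 and 15.7 FPKM, CCL26 at 8.47, 8.61 and 7.97, CXCL5 at 6.32, 5.39 and 7.41, CCL20 at 5.42, 5.98 and 5.05, CXCL2 at 4 ± 0.0442 and CXCL8 at 2.03 ± 0.38. CCL5, CCL22, CCL27 and CXCL6 had fewer than 3 counts in each library. Of 32 interleukins and other cytokines 11 were detected. MIF stood at 314, 383 and 302 FPKM, highest in DMSO 2, IL18 at 27 ± 0.973, KITLG at 26.4 ± 0.834, CLCF1 at 22.9 ± 1.31, CSF1, the macrophage growth factor, at 18.5 ± 0.993 and IL32 at 14 ± 1.14. IL6 had 0, 0 and 2 counts and THPO, a hormone that hepatocytes make for platelets, 0, 1 and 0. IL12B, IL24, IL27, CSF3, LTA and LTB also had fewer than 3 counts in each library.

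The binding proteins of insulin-like growth factors were the fullest secreted group, with 6 of 7 detected and a median of 56.2 FPKM. IGFBP2 stood at 108, 113 and 105 FPKM, IGFBP4 at 88.5 ± 2.41, IGFBP6 at 69.6 ± 1.73, IGFBP3 at 56.2 ± 0.992, IGFBP1, a hepatocyte product, at 30.4 ± 0.531 and IGFBP5 at 9.82 ± 0.198. IGFBP7 had 0 counts in each library. Their ligands IGF1 and IGF2 were both below detection, as given above.

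Matrix proteases and inhibitors were detected in 16 of 25 cases. Matrilysin (MMP7) stood at 166, 171 and 165 FPKM, SERPINE2 at 125, 118 and 126, ADAM9 at 99.1 ± 0.893, TIMP1 at 78.6 ± 1.9 and TIMP2 at 64.8 ± 0.399. MMP9, a gelatinase, had 0 counts in each library. Matrix glycoproteins and collagens were detected in 23 of 36 cases. FN1 stood at 1115, 1079 and 1109 FPKM and gave 55.1 ± 0.712% of the group's summed FPKM, followed by the galectins LGALS1 (272 ± 5) and LGALS3 (85.9 ± 2.13), COL6A1 (131 ± 1.98), COL6A2 (56.1 ± 0.937) and the laminin chain LAMB1 (67.6 ± 2.2). THBS2 had 0 counts in each library.

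Keratins of simple epithelia were abundant, and CDH1 was not the leading cadherin. Of 23 epithelial genes 18 were detected (78.3%), beside 64.4% of protein-coding genes. The keratins KRT8 and KRT18 are partners in the filaments of hepatocytes and ducts. KRT8 stood at 1281, 1307 and 1262 FPKM and KRT18 at 568, 577 and 567. Among the cadherins the gut cadherin CDH17 stood at 125, 119 and 124 FPKM, the neural cadherin CDH2 at 29.9, 29.4 and 30.3 and the epithelial cadherin CDH1 (chromosome 16, 68737292 to 68835537) at 5.94, 5.68 and 6.32. CDH17 exceeded CDH1 20.5 ± 0.838-fold and CDH2 exceeded it 5 ± 0.189-fold, with no overlap between libraries. ELF3 (104 ± 1.36), CLDN4 (77.4 ± 3.53) and DSG2 (53.9 ± 1.11) were high, and OVOL1 had 0 counts in each library. Of 10 mesenchymal genes with a row 6 were detected (60%), near the 64.4% of protein-coding genes, and another 4 listed had no row. The 6 were S100A4, CDH2, ZEB1, SNAI2, SNAI1 and vimentin (VIM). S100A4 stood at 2625, 2577 and 2629 FPKM and VIM at 3.02, 3.21 and 3.32. ZEB1 stood at 3.76 ± 0.0745 FPKM, SNAI2 at 3.23 ± 0.437 and SNAI1 at 2.71 ± 0.54. KRT8 exceeded VIM 404 ± 22.2-fold. So among the genes listed as mesenchymal the calcium-binding S100A4 was abundant and the filament protein VIM was low.

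All 20 proliferation genes were detected, beside 64.4% of protein-coding genes, and all had a mean of 10 FPKM or more. PCNA, the sliding clamp of replication, stood at 164 ± 2.54 FPKM, TOP2A at 96.2 ± 3.97, TYMS at 85 ± 1.23, CCNB1 at 77.9 ± 0.825, FOXM1 at 77.7 ± 0.629 and PLK1 at 73.8 ± 1.48. Of 30 genes recurrently altered in liver cancer 28 were detected (93.3%). The highest were CTNNB1 at 54.4 ± 2.08, CCND1 at 38.9 ± 1.75 and MYC at 36.2 ± 0.362 FPKM. RPS6KA3 at 31.4 ± 0.455, NFE2L2 at 30.5 ± 1.6 and JAK1 at 30.5 ± 1.63 came next. CDKN2A, the locus of the inhibitors p16 and p14ARF, stood at 9.79, 10.5 and 9.65 FPKM. TERT, the telomerase catalytic subunit, stayed below the threshold at 0.793, 0.691 and 0.807 FPKM. Mutations cannot be read from these files. Reference genes were detected in 20 of 20 cases with a median of 221 FPKM.

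Markers of other lineages were largely silent. Of 123 with a row 25 were detected (20.3%), beside 64.4% of protein-coding genes, and 33 had fewer than 3 counts in each library. Another 84 of the 207 listed had no row in the files, so several of these lists rest on few genes. The highest share was that of stomach and intestine, with 8 of 13 detected. LGALS4 (chromosome 19, 38801674 to 38812945) stood at 344, 343 and 345 FPKM and CDH17 (chromosome 8, 94127162 to 94217278) at the level given above. Of the trefoil peptides of mucus, TFF1 stood at 21, 21.6 and 28.3 FPKM, TFF3 at 12.3, 14.4 and 14.4 and TFF2 at 9.77, 9.88 and 6.94. The microvillus protein VIL1 stood at 6.98 ± 0.43 FPKM. CDX2, the intestinal master factor, stood at 1.15, 1.6 and 1.52 FPKM, while the mucin MUC2 had 1, 5 and 0 counts, both named after their values were seen. LCT had 0, 0 and 1 counts and FABP1, which hepatocytes also make, 1, 0 and 0. The libraries carry no label of a gut origin, and the part of any other cell source in these levels was not tested.

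The remaining lineages had 0 to 5 detected genes each. Among 11 endothelial markers, ESAM (25.8 ± 2.37 FPKM), KDR (9.56 ± 0.383), PECAM1 (6.94 ± 0.31), EGFL7 (1.68 ± 0.239) and LYVE1 (1.55 ± 0.213) were detected, while VWF stood at 0.0601 ± 0.0113 FPKM and the defining cadherin CDH5, named after its value was seen, had 5, 5 and 3 counts. Among 10 myeloid markers CD68, a lysosomal protein, stood at 51.2, 50.8 and 54.7 FPKM and ITGAM at 1.68 ± 0.193, while the leukocyte gene PTPRC, also named after its value was seen, had 6, 5 and 3 counts. Of 12 lymphoid genes only the B cell receptor chain CD79A was detected, at 6.39, 4.76 and 6.28 FPKM, with its partner CD79B at 0 counts in each library. Of 14 stellate cell and fibroblast genes only lumican (LUM) was detected, at 9.09, 8.19 and 8.62 FPKM, with COL1A1 at 0.112 ± 0.0404 and DCN at 0.111 ± 0.0233. Neurons and glia gave TUBB3 (34.3 ± 1.1 FPKM), MBP (11.1 ± 0.247) and MAP2 (2.9 ± 0.119) of 9. The pancreas list gave NKX2-2 (2.92 ± 0.45) of 3, and 12 of its 15 listed genes had no row. Lung, thyroid and kidney gave PAX8 (1.09 ± 0.0344) of 11. Squamous epithelium and melanocytes gave KRT10 (17.9 ± 0.636) and MITF (1.74 ± 0.0617) of 9, and germ cells and gonad ZP3 (6.91 ± 0.183) of 10. No member with a row was detected in the erythroid and megakaryocytic list (7 of 16 listed genes had a row). The same held for the muscle list (7 of 15) and the prostate, breast and placenta list (7 of 15). Without DMSO 3, 1 member of the erythroid and megakaryocytic list was detected.

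**Figure D4:**
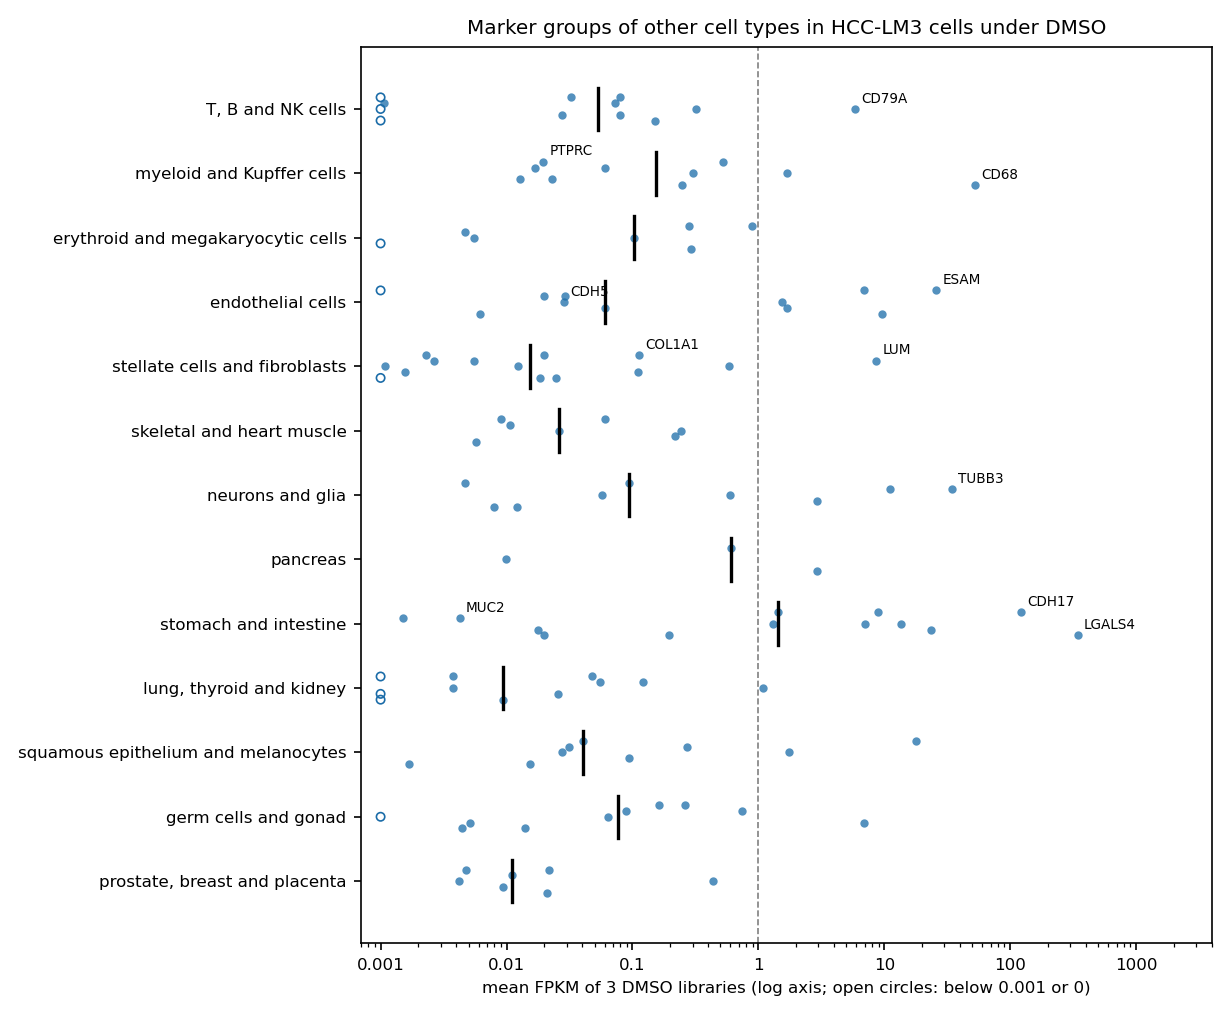
Mean FPKM over the 3 DMSO libraries on a log axis for markers of other cell types in 13 groups, with a point per gene, a black bar at the median and a dashed line at 1 FPKM. Stomach and intestine is the only group with a median above 1 FPKM (1.42), and LGALS4 at 344 FPKM is the highest point of the plot.

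Position-specific factors were patchy, with 21 of 48 detected (43.75%), beside 64.4% of protein-coding genes. Another 19 of the 67 listed had no row. In the HOXA cluster 6 of 11 were detected, HOXA3 at 7.46 ± 0.0866 FPKM, HOXA13, the hindgut member, at 4.64 ± 0.107, HOXA2 at 3.85 ± 0.399, HOXA5 at 3.66 ± 0.335, HOXA6 at 1.89 ± 0.285 and HOXA11 at 1.22 ± 0.188, while HOXA9 had 1, 0 and 0 counts. Neighbours within the cluster overlap in the annotation, so their reads may be shared. In HOXB, 4 of 8 were detected, a run from HOXB4 (1.37 ± 0.152) through HOXB5 (3.01 ± 0.672) and HOXB6 (4.65 ± 0.447) to HOXB7 (9 ± 0.586). HOXC9 (4.1 ± 0.699) alone was detected of 9 HOXC genes (2 were detected when DMSO 2 was left out). None of the 3 HOXD genes with a row was detected, and the other 6 listed had no row. A list of GATA, forkhead and other developmental factors, not all of endoderm, had 13 genes, of which 5 were not analysed here. Of the other 8, 7 were detected (87.5%), beside 64.4% of all protein-coding genes. They included HHEX, FOXA1 at 18.4 ± 0.809 FPKM, FOXA2, GATA6 at 6.93 ± 0.228, GATA3 at 5.91 ± 0.747 and GATA4 at 3.44 ± 0.363. Of 9 factors of the PAX and sine oculis families 3 were detected, SIX5 (7.35 ± 0.494) and PAX8 among them.

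The 3 libraries were close to each other, and still differed by more than read sampling. The common biological coefficient of variation, edgeR's estimate of the spread beyond counting noise, was 5.83% over 14156 genes. The median coefficient of variation of CPM over detected genes was 4.43%, with a 5th to 95th percentile of 0.972 to 16.3%. For the 6796 genes with a mean of 1000 counts or more it was 3.31%. The median Poisson value computed from their mean counts was 2.0%. The first is measured on 3 libraries and the second comes from a formula, so they can be set side by side only roughly. Of 10707 genes that averaged at least 5 CPM, 9115 (85.1%) stayed within 1.2-fold between the highest and lowest library, 110 exceeded 1.5-fold and 5 exceeded 2-fold. Log2 CPM correlated between libraries at 0.9955 to 0.9957 across the 10975 detected genes, which are not independent replicates.

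A chi-square test of each gene's 3 counts against the effective library sizes, with Benjamini-Hochberg adjustment at 0.05, called 6354 of 15070 genes with a mean of 10 counts or more (42.2%). It compares these 3 libraries and no conditions. It called 3843 genes without DMSO 1, 3134 without DMSO 2 and 3630 without DMSO 3, each of which leaves fewer libraries to compare. Between pairs of libraries the chi-square over its degrees of freedom was 4.40 to 5.27, so no library was a copy of another. Among members, the abundant genes were called on small differences: MET differed at 9514, 9349.8 and 9563 CPM and FN1 at 9559, 9230.0 and 9521. Of the lists, 9 of 12 tested carriers, 17 of 31 receptor tyrosine kinases and 6 of 9 gut genes were called, against 3 of 12 protease inhibitors, 3 of 14 drug and alcohol enzymes and 2 of 13 amino acid genes, beside the 42.2% of all genes. AMBP, MIF and GAGE2A were among the members with a visible spread, with MIF at 175, 213 and 169 CPM and GAGE2A at 4.84, 4.93 and 9.08.

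The genes that varied most were few, and several of them lie in duplicated or overlapping sequence. SLC25A6, a mitochondrial ADP carrier (chromosome X, 1386152 to 1392113), had 1442, 134 and 123 counts, high in DMSO 1 alone. CD99, a surface glycoprotein (chromosome X, 2691295 to 2741309), had 1109, 427 and 96 counts, a different level in each library. Both lie in the pseudoautosomal region of the X chromosome, whose sequence is also present on Y. Of 19 pseudoautosomal genes with a row 11 could be tested, of which 7 differed between the libraries, beside 42.2% of all genes tested. Of the 11, 6 spanned more than 2-fold. They include genes below the mean CPM required for the earlier 2-fold count over all genes, so those counts cannot be compared. Apart from SLC25A6 and CD99, the 6 had low counts. AKAP17A had 65, 45 and 15, ASMTL 51, 8 and 65, LINC00106 26, 7 and 4 and PPP2R3B 34, 88 and 110. SMN1, needed to assemble splicing particles and paired with the near-identical SMN2, had 324, 279 and 1053 counts, high in DMSO 3. Adding SMN2, the sums were 569, 459 and 1228, a 2.89-fold span. LOC102724594, a copy of the splicing factor gene U2AF1, had 93, 239 and 541 counts, and with U2AF1 the sums were 172, 295 and 779, a 4.86-fold span. SMN2 and U2AF1 were named after their values were seen. NPIPA1 (186, 267 and 126 counts) belongs to a repeated family. BEST1 (1758, 2356 and 1116 counts) overlaps FTH1, and ARHGAP45 (338, 503 and 243) overlaps POLR2E. DFFB had 289, 127 and 217 counts, FAM110A 318, 258 and 150 and EVC2 148, 281 and 209. What made these genes differ between libraries was not tested.

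**Figure D5:**
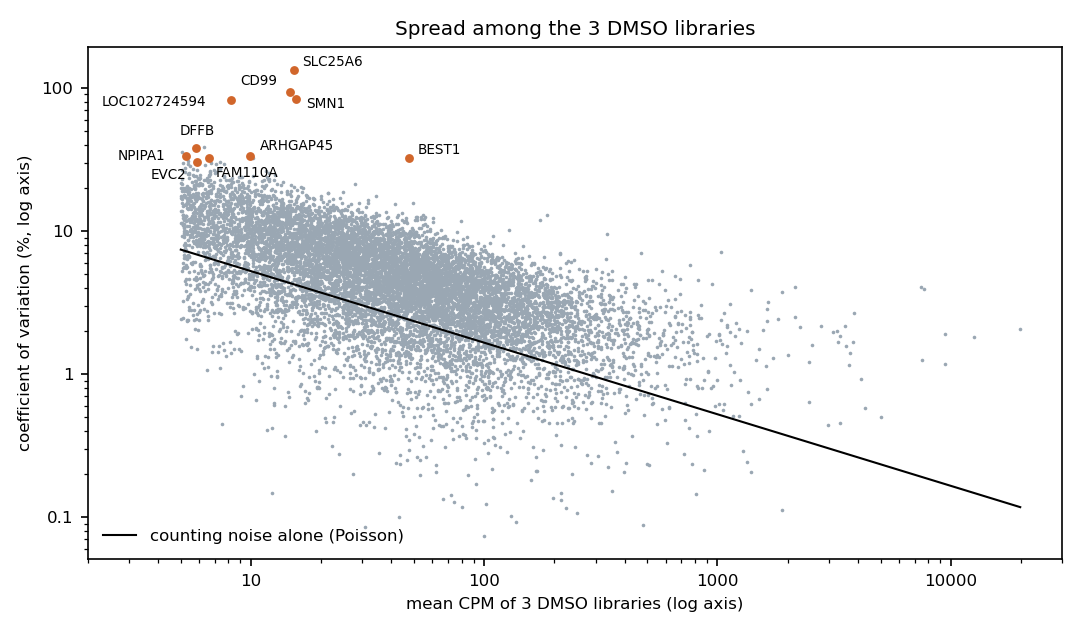
Coefficient of variation (percent, log axis) against mean CPM (log axis) for the genes that averaged at least 5 CPM, with the 10 genes of largest range over the 3 DMSO libraries in orange. The black line is the variation from counting alone, and SLC25A6, CD99, SMN1 and LOC102724594 stand above 80% while most genes lie below 10%.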

How the data were processed

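Cells were lysed in TRIzol for total RNA, and the VAHTS Universal V6 kit gave the libraries, according to the labels' protocols. The submitters' processing notes name fastp, HISAT2, HTSeq and the GRCh38 (hg38) build. No source used here gives their versions, the strand setting or the handling of reads with several matches. The deposited counts are the authors' unnormalized reads per gene symbol in each library. The 1573 genes with 0 counts in each of the 3 libraries allow no check of the deposited FPKM. For every other gene, the FPKM deposited by the authors equal the count over a fixed gene length and the library total (relative tolerance 0.0001). Lengths come from that relation, so a gene that uses a shorter isoform is understated in FPKM.

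CPM were computed from the counts with TMM effective library sizes (edgeR 4.0.16, R 4.3.3). Spread was measured as the coefficient of variation of CPM, as edgeR's common dispersion with its default filter, and with a chi-square test of homogeneity (2 degrees of freedom, scipy 1.17.1, Benjamini-Hochberg over genes with a mean of 10 counts or more). These steps were tested on simulated data. DESeq2 1.42.0 gave alternative size factors. Symbols were matched to RefSeq (21752 matched) for positions, classes, overlaps and promoters. The libraries totalled 34647650 to 37276429 counts. The spread given with a level is that of the 3 libraries, which holds more than the counting error set by these totals.

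The 58 gene lists and the members named were chosen with earlier results of these data known. Of 1153 listed genes, 217, GPC3 among them, were not analysed here. Named are the 20 nuclear genes with most counts, the 20 (300 nucleotides or longer) highest in FPKM, up to 6 highest members of each list and every detected one where fewer than 4 were, members of the liver, progenitor, receptor and secreted lists with fewer than 3 counts in each library (up to 12 a list), the 10 genes of largest range, and a set of liver, cancer and epithelial genes. The set includes ALB, AFP, AFM, GC, GPC3, HNF4A, FOXA2, CEBPA, SOX9, KRT19, KRT7, EPCAM, PROM1, EGFR, MET, FGFR4, FGF19, IGF2, VEGFA, GDF15, VIM, CDH1, CDH2, CDKN2A and TERT. Some genes that the rule names are not reported here. Genes outside this rule, among them those shown beside MET and ASGR1 in the plot of liver groups, were chosen after their values were seen. Alternatives were other thresholds and units for detection, other scaling, other filters and each library left out in turn.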

Additional observations from a re-analysis of the deposited data

How the results depend on the processing

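No paired analysis was possible because the 3 DMSO libraries form a single group and no test between groups was made. The number of detected genes was 7308 at 5 FPKM and 11060 to 11087 with a library left out, against 10975. The median over the 58 lists of their median level was 0.722 FPKM, and 1.85 in TPM (FPKM rescaled to the same sum in each library) or 0.696 to 0.783 FPKM with a library left out. The 20 genes with most counts held 12.3% of counts, 8.70% with mitochondrially encoded genes left out, and the 20 highest in FPKM held 24.1% of summed FPKM. Genes that differed between libraries numbered 6354, and 3134 to 3843 with a library left out, which compares fewer libraries. The common biological coefficient of variation was 5.83%, 6.11% with no filter and 5.54% for genes with 1 CPM in 3 libraries. The count of detected members moved by more than 1.5 times in 28 of 58 lists at 5 FPKM, 11 at 1 CPM, 8 at 1 TPM and 6 at 0.5 FPKM. Under the floor of 0.0803 to 0.0867 CPM that a count of 0 allows, a silent gene and a rarely transcribed one could not be told apart at this depth.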
